A study of Mus musculus with 2 samples.

Results

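Embryonic globins and the transcription factors of early blood were followed in differentiating mouse embryonic stem cells (ESCs). The set had 10 members of the 24354 genes of the deposited table, chosen by symbol: the globins Hba-x, Hbb-y, Hbb-bh1 and Hba-a1 and the factors Tal1, Lmo2, Lyl1, Runx1, Klf1 and Gfi1b. RNA-seq values of 1 library of differentiating control ESCs (Diff–CONT) and 1 library of ESCs with an inducible Ino80 knockout (Diff–iKO) were compared. Both lines carry floxed Ino80 alleles (Ino80 2f/2f), and the labels call the control WT. CreER, a recombinase switched on by 4-hydroxytamoxifen (4-OHTM), is expressed from ROSA26 only in the knockout line, so Cre itself cannot be told apart from the loss of Ino80. Both cultures were primed for 2 days and formed embryoid bodies, which were moved to coated dishes at day 4. From day 5 they were kept for 7 days in differentiation medium with BMP4 and 0.5 µM 4-OHTM. The number of clones behind each line is not given in the sources used here. Each condition had 1 library, so no difference has a replicate check and no p-value is given.

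The first blood cells of the mouse embryo arise from mesoderm of the yolk sac. These primitive erythroid cells carry haemoglobin made of embryonic chains, Hba-x (zeta) in the alpha cluster and Hbb-bh1 (beta-H1) and Hbb-y (epsilon-y) in the beta cluster, together with the alpha chain of Hba-a1. Later, definitive erythroid cells replace the embryonic beta-type chains with adult beta globin. Tal1 and Lmo2 are needed for the first blood progenitors and sit in a DNA-bound complex with GATA factors, E proteins and Ldb1. Lyl1 is a close relative of Tal1. Runx1 is needed for definitive blood from endothelium, Klf1 activates globin and other erythroid genes through CACCC boxes, and Gfi1b is a repressor used in erythroid and megakaryocytic cells.

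The promoters of the globin members are shown because these 3 genes had a large difference and a RefSeq promoter entry. Each line gives the 140 bases before the RefSeq start on GRCm38.p6, read 5′ to 3′ on the strand of the gene. Capitals mark a CACCC box, a CCAAT box, a GATA motif or a TATA-like box. The GATA motif was searched as AGATAA, in its variant form AGATAG, and with another leading base in the forms TGATAA as well as TGATAG. The TATA-like box was searched in its common form TATAAA, as the variant TATAAG and as the variant of some globin genes, CATAAA. The TATA-like box was searched on the strand of the gene and the others on both strands, and no marked letters belong to more than 1 motif. Hba-x lies at chr11:32276460-32276599 on the plus strand, Hbb-y at chr7:103853208-103853347 on the minus strand and Hba-a1 at chr11:32283532-32283671 on the plus strand.
Hba-x: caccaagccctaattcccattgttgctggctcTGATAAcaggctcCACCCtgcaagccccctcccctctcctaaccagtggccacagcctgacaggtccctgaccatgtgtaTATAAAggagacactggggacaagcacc
Hbb-y: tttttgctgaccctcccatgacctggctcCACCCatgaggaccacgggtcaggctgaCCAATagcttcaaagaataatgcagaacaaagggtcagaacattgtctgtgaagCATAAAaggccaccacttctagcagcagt
Hba-a1: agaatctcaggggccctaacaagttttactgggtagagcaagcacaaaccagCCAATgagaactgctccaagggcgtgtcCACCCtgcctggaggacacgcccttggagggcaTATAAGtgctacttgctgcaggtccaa

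All 3 windows held a CACCC box and a TATA-like box, and the TATA-like boxes began 28, 29 and 27 bases before the start of Hba-x, Hbb-y and Hba-a1. Both motifs together were found in 2.91% of 32851 RefSeq promoters of the same length. The form CATAAA was included as a globin variant, and it is the only TATA-like match of the Hbb-y window. The match of all 3 windows was therefore partly set by the choice of forms, and the share is a description. Separately, CACCC was found in 35.6% of them, a TATA-like box in 9.96%, CCAAT in 23.4% and the GATA motif in 14.9%. Of the 3 windows, the GATA motif was present only in that of Hba-x, and CCAAT was present in the windows of Hbb-y and Hba-a1. Of the 10 members, 8 had a promoter entry (all but Hbb-bh1 and Lmo2). A CACCC box was found in 6 of these, CCAAT in 5, the GATA motif in 3 (Hba-x, Klf1 and Gfi1b) and a TATA-like box in 3, the globins shown. A match is a string of letters and not a site shown to be bound.

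Ino80 itself was not lower in the library labelled Diff–iKO. Its level was 8.90 FPKM (fragments scaled for transcript length and library size) in Diff–CONT against 10.3 in the library labelled Diff–iKO. A value per gene does not resolve the deleted exons, so this does not check the label, and directions below are those of the libraries as labelled. The 2 libraries also stood apart in genes of the sex chromosomes. Xist was at 0.0639 FPKM in Diff–CONT but at 3.59 in the library labelled Diff–iKO. The Y-linked Ddx3y was at 4.07 and 1.89, and Uty was at 4.14 and 0.664. The part of this difference in the results was not tested. The steps of the FPKM values gave a library scale of about 30040000 fragments for Diff–CONT and 22320000 for Diff–iKO. These are fitted scaling constants and not counted totals.

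All 4 globins were present in Diff–CONT and listed at 0 or at 1 to 2 fragments in the library labelled Diff–iKO. Together they had 2323 fragments in Diff–CONT but 3 in the library labelled Diff–iKO. As summed level, this was 185 FPKM against 0.333, or 558-fold lower. Relative to the fitted library scales, the log2 difference in fragments was -9.17 with a 95% counting interval of -11.45 to -7.62. Intervals cover counting error only and say nothing of the spread between cultures. In bulk RNA, fewer cells of a type and less RNA per cell cannot be told apart.

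The embryonic beta-type globin Hbb-bh1 (chr7:103841638-103843162, minus strand) was the most abundant member. It was at 88.2 FPKM in the Diff–CONT library (95% counting interval 83.0 to 93.5), from 1112 fragments, and was listed at 0 in the library labelled Diff–iKO. Against a floor of 3 fragments in that library, the level was at least 282-fold lower, and the upper end of the wider 2-sided counting interval of the log2 ratio was -7.84. The embryonic alpha-type globin Hba-x (chr11:32276600-32278116, plus strand) had the same pattern. It was at 54.9 FPKM (50.8 to 59.1), from 677 fragments, and was listed at 0 in the library labelled Diff–iKO, at least 172-fold lower against the same floor, with an upper end of the interval of -7.12.

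The other embryonic beta-type globin, Hbb-y (chr7:103851754-103853207, minus strand), was at 35.0 FPKM in the Diff–CONT library (31.9 to 38.5), from 452 fragments. It stood at 0.102 FPKM in the library labelled Diff–iKO, that is 1 fragment and 0.292% of the Diff–CONT level. The log2 ratio was -8.42 with a wide counting interval of -13.73 to -5.94. Hba-a1 (chr11:32283672-32284486, plus strand), the alpha chain used in embryonic and adult haemoglobin, was the least abundant globin member. Its level was 7.41 FPKM (5.88 to 9.18) from 82 fragments, against 0.230 FPKM from 2 fragments, a log2 ratio of -5.01 (-8.04 to -3.07). By log2 ratio with a pseudocount of 0.1 FPKM, Hbb-bh1 had rank 3 from the lowest, Hba-x rank 4, Hbb-y rank 9 and Hba-a1 rank 32 among the 24354 genes.

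**Figure D1:**
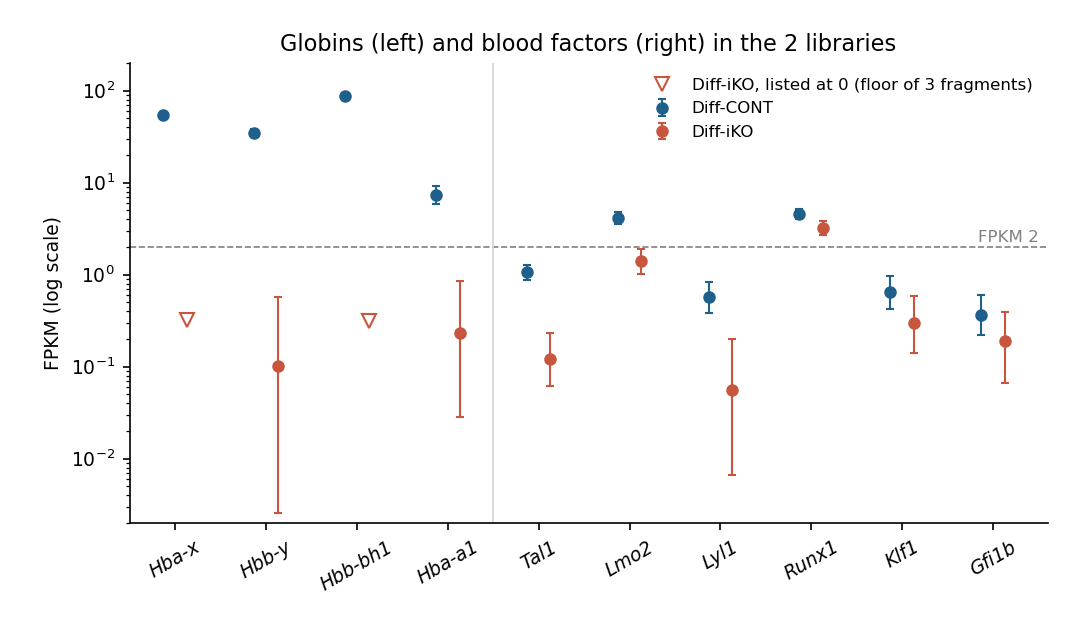
FPKM of the 10 members on a log axis, with the Diff–CONT library in blue and the library labelled Diff–iKO in red, and bars for the 95% counting interval. Open triangles mark the floor of 3 fragments for Hba-x and Hbb-bh1, which were listed at 0. The globins span 7.41 to 88.2 FPKM in the Diff–CONT library, and the factors span 0.368 to 4.59.

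Among the beta-type globins with a value, the embryonic genes took nearly all of the level in the Diff–CONT library. The adult gene Hbb-bt and Hbb-bh0 had no entry under these symbols in the deposited values, so the shares below leave them out. Of the 50-base windows of the adult Hbb-bs transcript, 65.8% are shared with Hbb-bt, and a read within such a window does not by itself tell them apart. In the beta cluster, Hbb-bh1 made up 71.2% of the summed FPKM of 124 and Hbb-y 28.3%. The adult gene listed as Hbb-b1 made up 0.423%, at 0.524 FPKM, and Hbb-b2 was listed at 0. Neither symbol was matched in the annotation used for lengths. Hbb-bh2 and Hbb-bs together stayed under 1%, at 0.0722% and 0.000789%. Of the 7 other globin genes of the clusters in the table, 0 reached FPKM 2. Hbb-bh1 was 2.52 times as abundant per length as Hbb-y.

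In the alpha cluster, with a summed FPKM of 62.3, Hba-x made up 88.1% and Hba-a1 11.9%. Hba-x was 7.40 times as abundant per length as Hba-a1. The theta globins Hbq1a and Hbq1b were listed at 0 in both libraries. Hba-a2, a near-identical copy of Hba-a1, was listed at 0.00565 FPKM, less than 1 fragment. In the GENCODE transcripts, 67.5% of the 50-base windows of Hba-a1 are found in Hba-a2 as well. A read that lies within such a window does not by itself tell these genes apart. Their sum was 7.42 FPKM in Diff–CONT against 0.237 in the library labelled Diff–iKO. Hba-x, Hbb-y and Hbb-bh1 shared 0 such windows with each other or with the other globin transcripts compared. The summed level of the beta cluster was 1.99 times that of the alpha cluster.

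**Figure D2:**
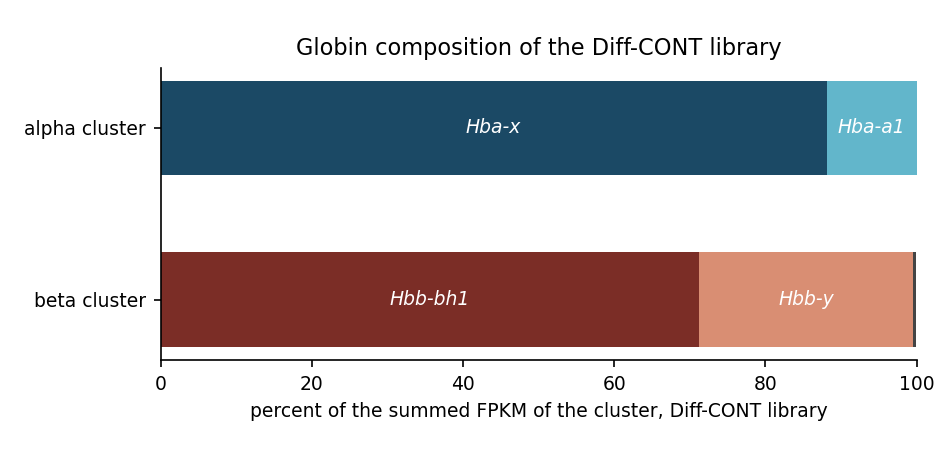
Percent of the summed FPKM of each globin cluster taken by each gene in the Diff–CONT library. Hba-x takes 88.1% of the alpha cluster, and Hbb-bh1 and Hbb-y take 71.2% and 28.3% of the beta cluster, with the adult Hbb-b1 as the thin dark strip at the right end.

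The 6 factors had lower values in the library labelled Diff–iKO, but only 1 of them (Lmo2) was past the cut-off of FC ≥ 2 and FPKM ≥ 2 in at least 1 library, and the counting intervals of Klf1 and Gfi1b included 0. Most factors were at a low level in both libraries. The intervals of Tal1 and Lyl1 overlapped that of the globin Hba-a1. Only Lmo2 and Runx1 reached FPKM 2. Lmo2 (chr2:103957903-103981878), the bridging protein of the Tal1 complex, was at 4.15 FPKM in Diff–CONT against 1.40 in the library labelled Diff–iKO. Its log2 ratio was -1.56, with a counting interval of -2.10 to -1.08 from 167 and 42 fragments on its shortest RefSeq transcript. This call ended at FC 4 and at an FPKM minimum of 5. Runx1 (chr16:92601466-92826074), the most abundant factor, was at 4.59 and 3.22 FPKM. This was 1.43-fold lower, a log2 ratio of -0.51 with an interval of -0.83 to -0.20.

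The basic helix-loop-helix factors Tal1 and Lyl1 had larger ratios at lower levels. Tal1 (chr4:115056426-115071755) was at 1.07 FPKM in Diff–CONT against 0.122 in the library labelled Diff–iKO, from about 113 and 10 fragments. Its log2 ratio was -3.14 (-4.17 to -2.14), so the whole counting interval lay beyond a 2-fold difference. Lyl1 (chr8:84701423-84704716) was at 0.578 and 0.0552 FPKM, from 28 and 2 fragments, a log2 ratio of -3.39 (-6.50 to -1.40). Lyl1 overlaps Nfix on the opposite strand, which was at 7.32 and 4.48 FPKM, and the strand setting of the counting is not given in the sources used here. Runx1 and Lmo2 also overlap an antisense or opposite-strand gene in the annotation, Gm26626 and 4931422A03Rik.

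The erythroid activator Klf1 and the repressor Gfi1b had few fragments in both libraries. Klf1 (chr8:84901982-84905291) was at 0.643 FPKM from 25 fragments and at 0.297 from 9, a log2 ratio of -1.11 with an interval of -2.34 to 0.09. Gfi1b (chr2:28609450-28621982) was at 0.368 FPKM from about 17 fragments and at 0.191 from about 6, a log2 ratio of -0.95 with an interval of -2.71 to 0.33. For both genes the interval included 0, so a difference was not detectable at this depth.

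**Figure D3:**
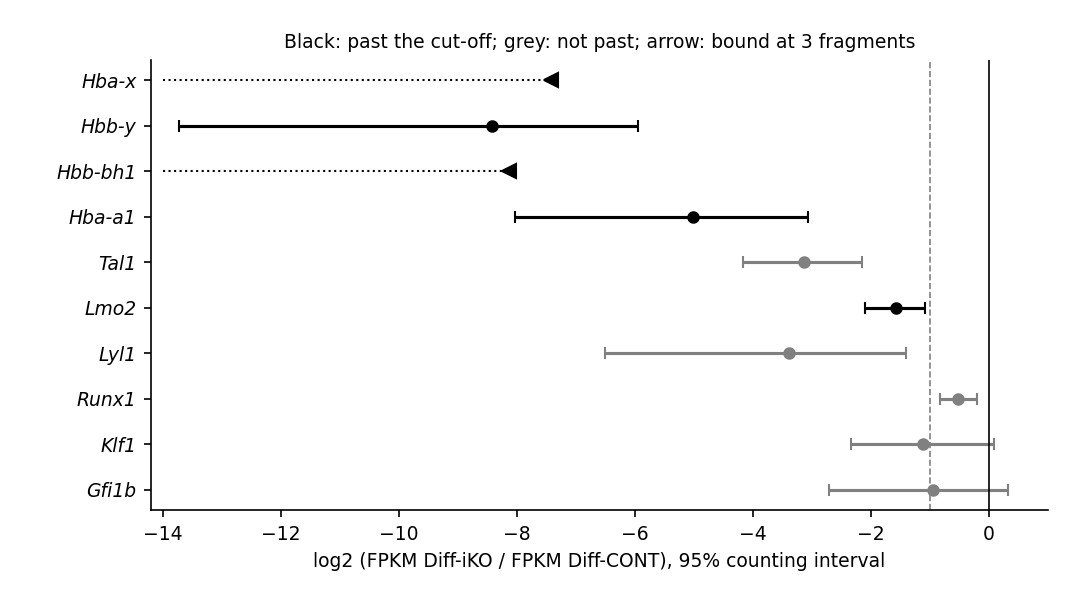
log2 ratio of FPKM in the library labelled Diff–iKO to FPKM in the Diff–CONT library for the 10 members, with 95% counting intervals. Arrows with dotted lines mark bounds for the genes listed at 0, the dashed line marks a 2-fold lower level, and black symbols mark the 5 members past the cut-off. The intervals of Klf1 and Gfi1b cross 0.

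Of the 10 members, 6 reached FPKM 2 in at least 1 library, 5 were past the cut-off as lower (the 4 globins and Lmo2) and 0 as higher. Over all 12376 genes that reached FPKM 2, 1038 were past it as lower (8.39%) and 833 as higher (6.73%). Without an FPKM minimum, 8 of 10 members (all but Runx1 and Gfi1b) were at least 2-fold lower, against 14.7% of the 18731 genes above 0 in at least 1 library. All 10 were lower at any fold, against 49.7% of those genes. The members were chosen with earlier results of these data known, so these counts are a description. The median log2 ratio with a pseudocount of 0.1 was -8.27 over the 4 globins and -1.20 over the 6 factors, beside 0 over all genes of the table. With the genes listed at 0 set at their bound and no pseudocount, the globin median was -7.78 and the factor median -1.34.

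**Figure D4:**
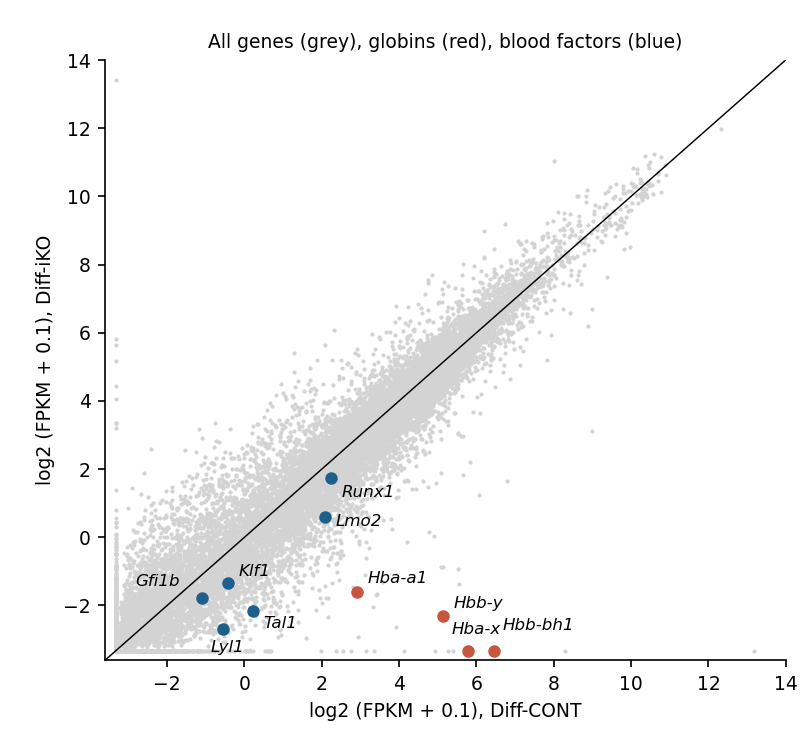
log2 (FPKM + 0.1) of each gene in the Diff–CONT library (horizontal) and in the library labelled Diff–iKO (vertical), with all genes in grey, the globins in red and the factors in blue. The line marks equal levels. The 4 globins lie far below the line, and Runx1, at 4.59 and 3.22 FPKM, lies near it.

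Among the 12376 genes with FPKM 2, 14 were past the cut-off as lower and listed at 0 in the library labelled Diff–iKO. Of these, 10 had names of microRNA or small nucleolar RNA genes, and the other 4 were Hba-x, Hbb-bh1, Spp2 and Apoc2. For the members with FPKM 2, the genes with the nearest pair of values were taken by Euclidean distance of log2 (FPKM + 0.1) over the 2 libraries. Hba-x and Hbb-bh1 lay at 0.684 from each other. The gene nearest to Hba-x was Mir6992, at 42.2 FPKM and 0. For Hbb-y the nearest were Mir218-1 (38.6 FPKM and 0) and Apob, an apolipoprotein of visceral endoderm and liver, at 47.0 and 0.290 FPKM. Slc13a4, at 6.86 and 0.262 FPKM, was nearest to Hba-a1. With 2 libraries, such nearness compares only 2 values per gene.

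Most partners of the factors were lower, without reaching 2-fold. Of 13 genes of the complexes, 10 were lower and 3 higher at any fold. Past the cut-off were 0 in either direction, and the median log2 ratio was -0.48. Gata1, the main erythroid GATA factor, was at 0.621 and 0.416 FPKM, with an interval of the log2 ratio of -1.54 to 0.33. Gata2, which acts in blood progenitors and other tissues, was at 6.40 and 6.93 FPKM. Ldb1, which holds the complex together, was at 107 and 130 FPKM. The E protein genes Tcf3 (53.7 and 33.5 FPKM) and Tcf12 (48.1 and 24.4) were lower without reaching 2-fold, as was the GATA cofactor Zfpm1 (1.66-fold). Cbfb, the partner of Runx1, was at 28.7 and 33.8 FPKM.

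Among 14 other transcription factors of blood, 3 were past the cut-off as lower and 0 as higher, with a median of -0.37. Erg, an ETS factor of endothelium and blood progenitors, was at 2.03 and 0.149 FPKM. Hhex was at 4.62 and 2.19 FPKM, and Meis1 at 20.2 and 10.1. Fli1, the relative of Erg, was at 1.58 and 0.418 FPKM and so under the minimum. The paralogues of the factors were split. Of 10, 3 were lower (Tal2, Lmo1 and Lmo4) and 3 higher (Klf2, Klf4 and Klf5), with a median of -0.57. Tal2 was at 2.71 and 0.465 FPKM, whereas Klf4, which is also a factor of undifferentiated ESCs, was at 4.77 and 21.9.

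Of the 10 genes known as repressors of embryonic globins or parts of their complexes, 1 was past the cut-off as lower and 0 as higher, with a median of -0.19. Sox6 was at 2.37 and 0.937 FPKM. Bcl11a, which represses embryonic and fetal globin in later erythroid cells, was at 3.42 and 2.05 FPKM. The remodeler Chd4 was at 130 FPKM and 125.

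**Figure D5:**
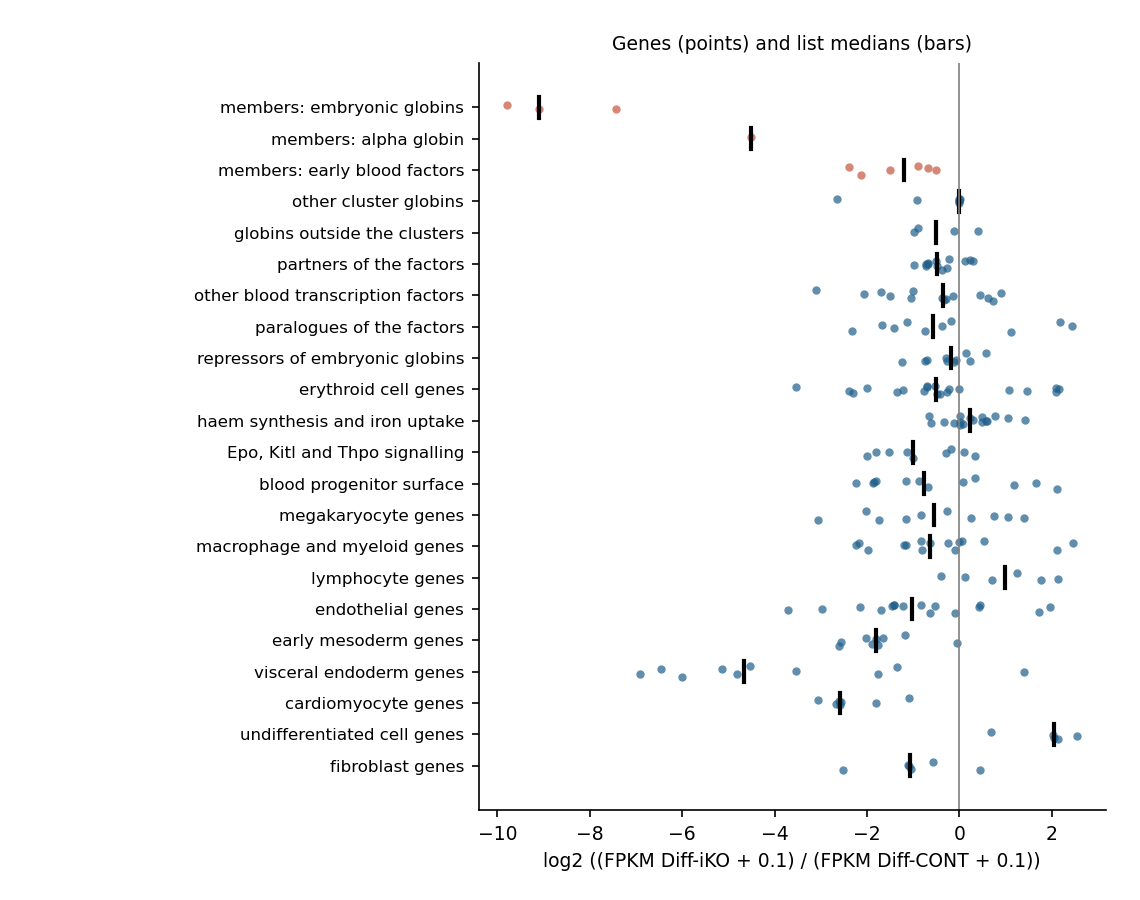
log2 ratio with a pseudocount of 0.1 for each gene (points) and the median (bars) of the members (red) and of 19 related gene lists (blue). The globin members lie below the genes of most lists, and the median of the visceral endoderm list is -4.67.

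Erythroid genes outside the globin clusters differed in both directions. Of 20 such genes in the table, 8 reached FPKM 2, and 3 of these were past the cut-off as lower and 3 as higher. Without an FPKM minimum, 9 of the 20 were at least 2-fold lower and 5 higher, and at any fold 14 were lower and 5 higher, with a median of -0.51. Alas2, the erythroid enzyme that starts haem synthesis, was at 1.06 FPKM from 54 fragments and was listed at 0 in the library labelled Diff–iKO, at least 13.5-fold lower. Epor, the erythropoietin receptor, was at 2.57 and 0.570 FPKM, and Tmod1, a cap of membrane actin, at 3.19 and 0.565. Among the higher genes were Rhd (0.878 and 4.23 FPKM) and Tspo2 (0.667 and 2.02). Slc4a1, the band 3 anion exchanger of red cells, was at 0.229 and 0.102 FPKM, from 30 and 10 fragments. Car1, the carbonic anhydrase of red cells, was listed at 0 in both libraries.

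Genes of haem synthesis and iron uptake, which cells of many types use, did not have the low levels of the globins. Of 17, 0 were past the cut-off as lower and 2 as higher, with a median of 0.23. The haem-degrading enzyme Hmox1 was at 29.3 and 79.2 FPKM and the ferrireductase Steap3 at 4.46 and 9.36. Alas1, the housekeeping relative of Alas2, was at 13.9 and 21.2 FPKM. The transferrin receptor Tfrc was at 86.8 and 149 FPKM.

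Signalling and surface genes of progenitors gave mixed values. Of 9 genes of erythropoietin, Kit ligand and thrombopoietin signalling, 3 were lower and 0 higher (Epor, Kitl and Stat5b), with a median of -1.01. Kitl was at 13.3 and 6.01 FPKM, while its receptor Kit, which ESCs also express, was at 20.6 and 26.1. Of 12 surface genes of blood progenitors, 3 were lower and 2 higher, with a median of -0.78. Cd34 had a log2 ratio of -1.94 from 6.54 FPKM, Cd93 at 6.34 and 1.69 and Itga2b (CD41) at 2.89 and 1.25. The higher genes were Spn, from 0.613 FPKM with a log2 ratio of 2.29, and Procr, at 4.22 and 9.73 FPKM. Ptprc (CD45), a surface protein of many blood cells, was near 0 at 0.0734 and 0.00893 FPKM, from 10 and 1 fragments.

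Markers of the other blood lineages gave mixed values. Of 10 megakaryocyte genes, 3 reached FPKM 2, of which 1 was lower (Itga2b) and 1 higher (Itgb3, at 7.90 and 16.4 FPKM). Without an FPKM minimum, 5 of the 10 were at least 2-fold lower and 2 higher, with a median of -0.56. The summed level was 22.2 and 32.8 FPKM, most of it from Itgb3 and Ppbp. Ppbp, a chemokine of platelets, was at 7.79 and 13.2 FPKM, and Gp1bb, a subunit of a platelet receptor, was at 0.410 and 1.23. Pf4, another platelet chemokine, was at 1.66 and 0.110 FPKM, from 20 and 1 fragments, a log2 ratio of -3.91 (-9.30 to -1.28). Of 15 macrophage and myeloid genes, 0 were lower and 2 higher, namely Csf1r (2.91 and 12.8 FPKM) and Laptm5 (2.33 and 13.3), which made up most of the summed level of 10.2 and 28.9 FPKM. The median of this list was -0.65, and without an FPKM minimum 8 of its genes were at least 2-fold lower and 2 higher. Tyrobp was at 0.351 FPKM from 4 fragments and listed at 0. Of 6 lymphocyte genes, 0 reached FPKM 2, and their summed level was 0.421 and 1.87 FPKM.

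Lists for cell types outside blood had more genes past the cut-off as lower than as higher, except the list of undifferentiated cells. Endothelial genes had 8 of 16 past the cut-off as lower and 2 as higher, with a median of -1.03, among them Sox17 (5.36 and 0.317 FPKM) and Icam2 (2.51 and 0.233) as lower. Pecam1 (16.2 and 53.9 FPKM) and Eng (7.31 and 28.9) were higher, and the former is also expressed by ESCs. Early mesoderm genes had 6 of 9 lower and 0 higher, with a median of -1.81. Visceral endoderm genes had 9 of 10 lower and 1 higher (Trf), with a median of -4.67 and a summed level of 333 and 22.2 FPKM. Afp, the fetal albumin-like protein of yolk sac endoderm and liver, was at 45.9 and 0.422 FPKM. Cardiomyocyte genes had 5 of 7 lower and 0 higher, with a summed level of 66.5 and 12.1 FPKM. Genes of undifferentiated cells had 0 of 5 lower and 4 higher, with a summed level of 133 and 453 FPKM, for example Pou5f1 at 60.8 and 247. Fibroblast genes had 4 of 6 lower and 0 higher, with a summed level of 1599 and 1537 FPKM. The part of these cell types in the globin and factor differences was not tested. The 19 lists hold 195 genes counted without repeats, of which 121 reached FPKM 2. Of these 121, 47 were past the cut-off as lower and 20 as higher, beside 8.39% and 6.73% of all genes that reached FPKM 2, and the lists were chosen with earlier results known.

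Genes that flank the members in the genome were compared where they were expressed, which leaves out both members of the beta cluster. Within 100 kb of the members lie 48 protein-coding genes of the table other than globins, a window chosen after the values were seen. Of these, 29 reached FPKM 2, 1 was past the cut-off as lower and 1 as higher, and the median log2 ratio over these 29 was 0.01. Nprl3, whose introns hold the main enhancers of the alpha cluster, was at 7.49 FPKM in Diff–CONT with a log2 ratio of 0.42. On the same side of the cluster, Mpg was at 11.9 and 10.5 FPKM, Rhbdf1 at 30.3 and 31.9 and Snrnp25 at 20.2 and 20.4. On the other side, Sh3pxd2b was at 21.4 FPKM in Diff–CONT with a log2 ratio of -0.83. The gene past the cut-off as lower was Clic6, near Runx1, at 27.1 and 1.02 FPKM, and the higher was Dnase2a, near Klf1, at 7.48 and 15.3. Of the 48, 11 were olfactory receptor genes, listed at 0 in both libraries, and these were the only genes other than globins around Hbb-y and Hbb-bh1. Of the 29 expressed genes, 12 flank Klf1.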

How the data were processed

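The authors deposited FPKM values per gene for 1 Diff–CONT and 1 Diff–iKO library, made from 1 µg RNA with a stranded mRNA kit. The study's methods give STAR 2.7.9a on mm10 with Cuffquant and Cuffnorm of Cufflinks 2.2.1, in a paragraph that begins with public datasets. Annotation, strand setting and read number are not given in the sources used here. Columns were assigned by name, and 0 other columns of values were present.

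From these values, log2 ratios were taken without a pseudocount where both values were above 0, and with 0.1 for medians and distances. The cut-off was FC ≥ 2 with FPKM ≥ 2 in at least 1 library. Cuffnorm scaling makes 1 fragment worth a fixed FPKM for a given transcript length, so fragments were recovered from the steps. The step was fitted on low values of 3528 genes with 1 RefSeq transcript of at least 1000 bases. It left 97.7% of 433 values (Diff–CONT) and 97.0% of 461 (Diff–iKO) within 0.2 of a whole number, where chance gives 40%, and 97.5% of 120 and of 119 for transcripts of 400 to 900 bases. Counts use the shortest RefSeq transcript and are approximate for genes with several. Intervals are exact Clopper-Pearson 95%. Lengths are of GENCODE vM21 transcripts with a RefSeq accession. Where a gene had 1 RefSeq transcript, the outer ends were moved to the RefSeq gene ends. Of 24354 symbols, 23315 matched GENCODE and 23021 had a length. Coordinates and promoters are from RefSeq GRCm38.p6.

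Members and lists were chosen with earlier results of these data known. Promoter motifs, shared windows and flanking genes were chosen after values were seen. Genes named are the members, other globins, Ino80, of each list the 3 highest and those past the cut-off (at most 4), and the 3 nearest in pattern. Not all are printed, and other list genes, such as Gata1 and Tyrobp, and the flanking and sex-linked genes were named outside that rule. The lists are those with counts in the text, plus 4 globins outside the clusters and 7 other cluster globins. Steps were tested on simulated data. Alternatives were other FC and FPKM limits, pseudocounts, scalings and transcript lengths. The tools were Python 3.11.15 with pandas 2.3.3 and numpy 2.4.6 for tables, scipy 1.17.1 for intervals and matplotlib 3.10.9 for figures.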

Additional observations from a re-analysis of the deposited data

How the results depend on the processing

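With 1 library per group, no library could be left out and the spread between cultures is unknown. No paired analysis was possible because each group has 1 library. The count of members past the cut-off was 5 and became 8 without an FPKM minimum and 6 with a minimum of 1. It was 4 at FC 4 and 4 with a minimum of 5, both of which end the call of Lmo2, the only factor called. The count of related genes lower was 47 (20 higher), 21 at FC 4 (11 higher) and 84 without an FPKM minimum (29 higher). The median log2 ratio of the members was -2.26, and it was -0.99 with a pseudocount of 1, -3.10 with 0.01 and -5.97 over members with FPKM 2. Summing rows of a symbol and using the longest transcript leave a ratio of FPKM as it is, and the scalings shift all genes alike. A pseudocount of 1, which shrinks low genes by its construction, took 6 members out of their counting interval or bound, among them Hbb-y (-5.03), Hba-a1 (-2.77), Tal1 (-0.88) and Lyl1 (-0.58). Scaling to the same sum of FPKM moved every log2 ratio by -0.09. Depth limits Klf1, Gfi1b and all ratios that rest on 1 to 3 fragments.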

Other observations

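The globins outside the alpha and beta clusters were low in both libraries. Cygb, the cytoglobin of fibroblasts and related cells, was at 1.83 FPKM in the Diff–CONT library and at 0.873 in the library labelled Diff–iKO, from 118 and 42 fragments, a log2 ratio of -1.07 with a 95% counting interval of -1.61 to -0.55. Mb, the myoglobin of heart and skeletal muscle, was at 0.511 and 0.460 FPKM. Ngb, the neuronal globin, was at 0.186 and 0.280 FPKM, and Adgb at 0.185 and 0.0532. Of these 4 genes, 0 reached FPKM 2.

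Csf2rb, the common beta chain of the receptors for IL-3, IL-5 and GM-CSF, was at 0.422 FPKM from 58 fragments and at 0.00974 from 1 fragment, a log2 ratio of -5.44 (-10.76 to -2.90). Mecom, a factor of blood stem cells and other tissues, was at 0.525 and 0.0500 FPKM, from 66 and 5 fragments, a log2 ratio of -3.39. Mrc1, the mannose receptor of macrophages and some endothelium, was at 0.785 and 0.0870 FPKM, from 121 and 10 fragments. All 3 lay under the FPKM minimum of 2 and were picked after their values were seen.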
